A study of Mus musculus with 22 samples.

Results

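The genes described here are the platelet-derived growth factor (PDGF) ligands Pdgfa, Pdgfb, Pdgfc and Pdgfd, their receptors Pdgfra and Pdgfrb, and the pericyte markers Rgs5, Cspg4, Notch3 and Abcc9, in mouse granulation tissue with and without matrix metalloproteinase-13 (MMP-13). They were chosen by name, and every probe set that the platform annotation gives to 1 of them alone was taken, which gave 25 probe sets of 10 genes out of 18193 genes with a probe set of their own on the array. The brightest probe set over all arrays stands for a gene where a single value is given. The tissue had grown into viscose cellulose sponges placed under the dorsal skin, and was taken from Mmp13-/- mice, which are homozygous for a disrupted Mmp13 gene, and from WT mice bred from the backcrossed heterozygotes. All mice were males, with an age of 5 to 8 weeks in the labels and a mixed C57BL/6 x 129 background, with at least 7 generations of backcrossing to C57BL6. Each array held RNA from the sponge of 1 mouse, with 3 arrays per genotype at 7 d and 4 arrays per genotype at 14 d and at 21 d, 22 arrays in all. Values are RMA log2 signals, in which a difference of 1 is a doubling.

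PDGFs are dimeric growth factors that bind receptor tyrosine kinases on mesenchymal cells. In growing vessels the endothelium secretes PDGF-B, and pericytes, the mural cells wrapped around capillaries, carry PDGF receptor β and are recruited by it. PDGF-A and PDGF-C act mainly through PDGF receptor α, which fibroblasts carry, while PDGF-D acts mainly through PDGF receptor β. PDGF-C and PDGF-D are secreted in a latent form that proteases must cut.

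Some facts of the arrays bear on everything below. The 12 arrays of hybridization series 1 (all of 7 d and replicates 1 to 3 of 14 d) were labelled from 2 µg of RNA, and the 10 arrays of series 2 (replicate 4 of 14 d in each genotype and all of 21 d) from 250 ng with another kit. The series term of the fit was called for 13.3% of all probe sets and for 7 of the 25 member probe sets, so the change between 14 d and 21 d rests on the 14 d replicate 4 array of each genotype. The array labelled WT 7 d replicate 1 stood apart in vessel genes, with a mean of 6.13 over Pdgfrb, Rgs5, Notch3 and Abcc9 against 7.77 to 9.20 in the other 21 arrays. Its endothelial marker mean was 5.48 and its skeletal muscle marker mean was 5.62, both the lowest of all arrays. The skeletal muscle markers read 9.15 and 10.41 in the other WT 7 d arrays and 5.62 to 10.41 over the 22 arrays, and their part in the member values was not tested. The main member differences that use 7 d WT tissue are given with and without it, and the correlations only in part. Mmp13 itself averaged 8.37, 8.31 and 7.91 in Mmp13-/- tissue at the 3 days, against 10.69, 11.72 and 11.17 in WT tissue, and no array of the genotypes overlapped at any day. It was not known here whether the disruption removed the sequence that these probes bind.

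Pdgfd, the ligand that needs proteolytic cutting and acts through PDGF receptor β, was lower in Mmp13-/- tissue at all 3 days and was the member with a genotype difference that passed the test. At 7 d its probe set 1456532_at read 4.33, 4.25 and 4.33 in Mmp13-/- tissue, against 6.12, 5.72 and 4.94 in WT tissue. At 14 d it read 4.63, 4.42, 4.01 and 4.08 in Mmp13-/- tissue, against 5.26, 5.26, 5.79 and 5.72 in WT tissue. At 21 d the values were 4.24, 4.34, 4.97 and 3.75 in Mmp13-/- tissue, against 6.91, 5.63, 4.97 and 5.84 in WT tissue. The genotypes were fully apart at 7 d and at 14 d, and at 21 d they met in 1 pair of arrays with the same value. Over all days the Mmp13-/- arrays lay between 3.75 and 4.97 and the WT arrays between 4.94 and 6.91.

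The difference was −1.29 (standard error 0.37, 2.45-fold lower), −1.22 (0.32, 2.33-fold lower) and −1.51 (0.32, 2.85-fold lower) on the log2 scale at the 3 days. No single day passed the threshold of an adjusted p under 0.05 in limma after Benjamini-Hochberg correction over all 45037 probe sets, with adjusted p = 1, 0.625 and 0.0656. Over the mean of the 3 days the difference was −1.34 (standard error 0.20, 95% interval −1.75 to −0.93, 2.53-fold lower), with adjusted p = 0.0111 in limma. It was 1 of the 31 probe sets called there, 0.0688% of all, and the remaining 24 member probe sets were not called. In all, 4 member probe sets had an unadjusted p under 0.05, each lower, where 6.56% of all had one. An exact permutation of genotype within day and hybridization series, over 56000 arrangements, gave a two-sided p of 7.14e-05 for the mean difference. An exact permutation test at 14 d alone gave p = 0.0286, the smallest that 4 against 4 arrays allow. It did not keep arrays within their hybridization series. With 3 against 3 arrays at 7 d such a test cannot go below 0.10. No change of the difference between days was called, at 0.07 (standard error 0.49) for 14 d against 7 d and −0.29 (0.46) for 21 d against 14 d. In bulk tissue, fewer cells of a type and less RNA per cell cannot be told apart.

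Within the hybridization series the difference had the same sign, at −1.29 and −1.08 for 7 d and 14 d in series 1 and at −1.64 (1 array against 1) and −1.51 for 14 d and 21 d in series 2. Leaving out each array in turn kept the mean of the 3 days between −1.45 and −1.22, with adjusted p between 0.0018 and 0.0406. Without WT 7 d replicate 1 the 7 d difference was −1.03. Leaving out either array of the pair with the same value took the 21 d difference past the threshold in limma, at −1.73 (adjusted p = 0.0498) when Mmp13-/- replicate 3 was dropped and −1.8 (adjusted p = 0.0283) when WT replicate 3 was dropped. The other Pdgfd probe sets were dim, with means of 2.64 for 1426319_at and 2.57 for 1446691_at against a median of 4.22 over all probe sets. Probe set 1426319_at gave −0.37, −0.46 and −0.77 at the 3 days and −0.54 over their mean (adjusted p = 0.42 in limma), and 1446691_at stayed between −0.21 and 0. Averaging all 3 probe sets gave −0.65 over the days (adjusted p = 0.0391 in limma).

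**Figure D1:**
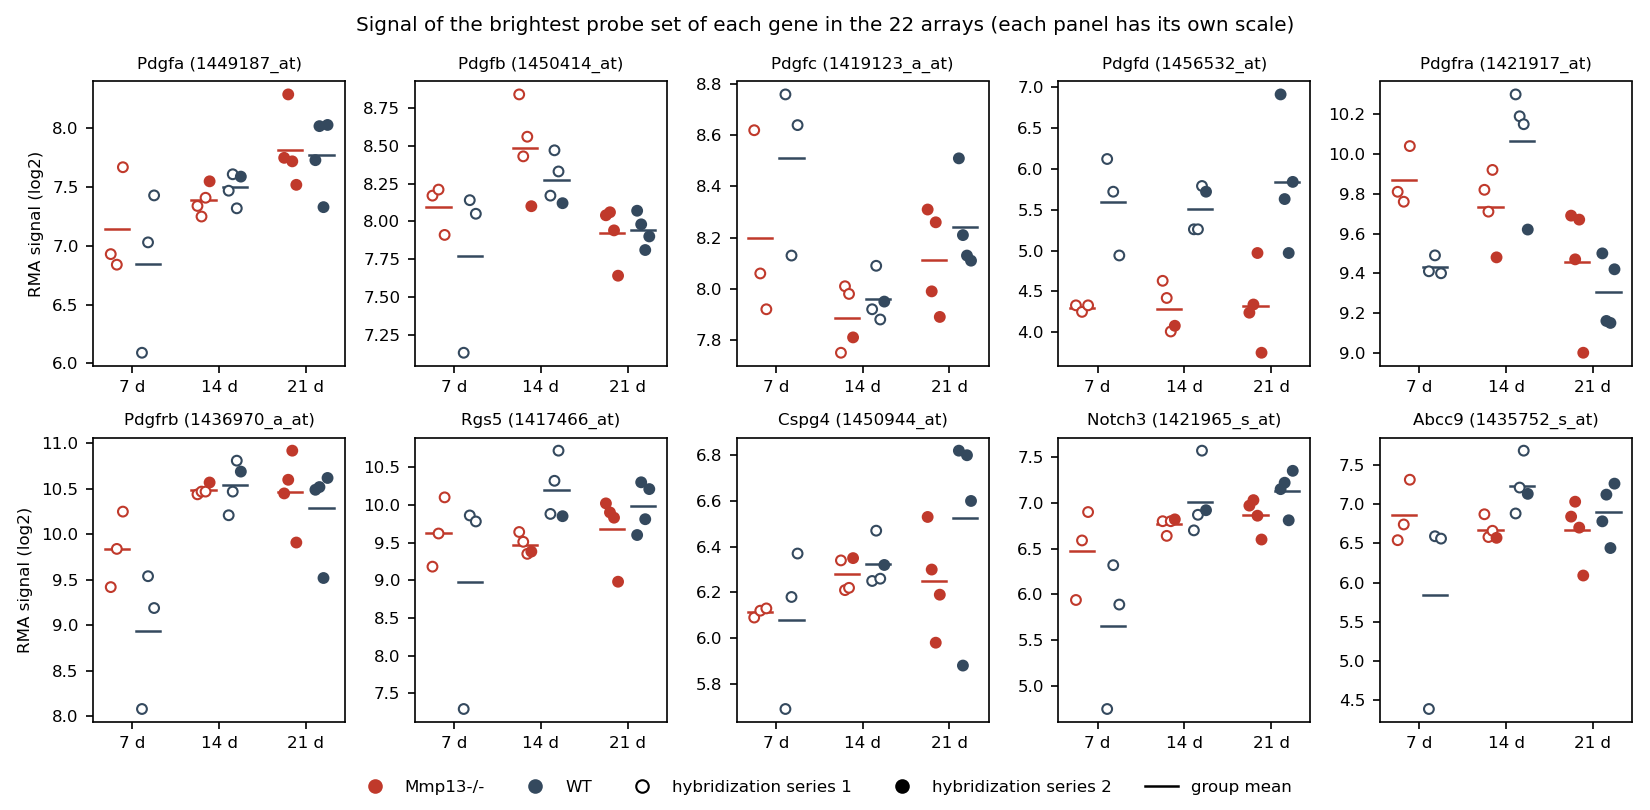
RMA log2 signal of the brightest probe set of each gene, with Mmp13-/- arrays in red left of WT arrays in dark blue at each day, open points for hybridization series 1, filled points for series 2 and a bar at the group mean. Pdgfd lies lower in Mmp13-/- tissue at all 3 days, and WT 7 d replicate 1 is the lowest point for Rgs5, Pdgfrb, Notch3 and Abcc9.

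Pdgfd shares chromosome 9 with Mmp13. In the order of a RefSeq gene table, 6 genes lie between them, 3 of them protein coding and all 3 measured. These were Ddi1, Dync2h1 and Dcun1d5, and none was called, with differences over the mean of the days of −0.11, −0.03 and −0.07. From Casp4 on the far side of Pdgfd to Yap1 beyond the Mmp genes, 17 neighbours other than Pdgfd and Mmp13 were measured, and 1 of them was called lower over the days and 0 higher. That 1 was Casp4, the inflammatory caspase, at −1.54 (standard error 0.12, adjusted p = 7.1e-07 in limma). By sign, 11 of the 17 were lower and 6 higher. Over the whole array, Mmp13, Casp4 and Pdgfd were the only probe sets whose group means were lower in Mmp13-/- tissue by over 1 at each of the 3 days, 0.00666% of all, a rule set after these values were seen. All 3 lie on the same stretch of chromosome 9. That stretch starts at Casp4, itself called, and was chosen with earlier results of these data known. Its counts therefore do not describe the rest of the chromosome, which was not looked at by position. Whether the position of these genes has a part in their differences was not tested.

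**Figure D2:**
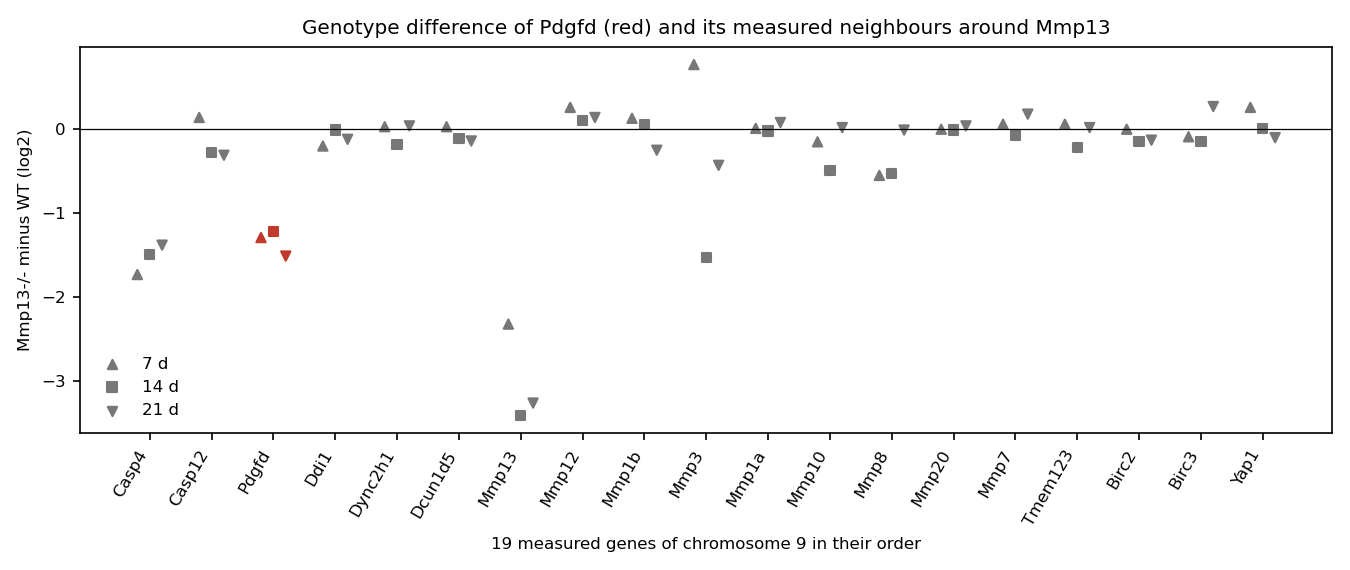
Log2 difference between Mmp13-/- and WT tissue for the 19 measured genes from Casp4 to Yap1 in their chromosomal order, with a triangle for 7 d, a square for 14 d and an inverted triangle for 21 d. Casp4, Pdgfd and Mmp13 lie below −1 at each day, and the genes between Pdgfd and Mmp13 lie between −0.20 and 0.04.

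The genes whose signal ran most like Pdgfd over the 22 arrays were Mmp13 (Pearson r = 0.85), Ada (0.78) and Npdc1 (0.78) among 11779 candidate genes. Within groups, after removal of the group means, the correlation with Mmp13 was 0.47. These correlations describe 22 arrays that share their groups, and carry no test.

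The promoter of Pdgfd, the one member called between genotypes, is shown with those of the mural genes described further below. The sequences are the 250 bases before the RefSeq start, 5′ to 3′ on the strand of the gene, in GRCm38.p6, at chr9:6168236-6168485 for Pdgfd and chr1:169655251-169655500 for Rgs5, both on the + strand, and at chr17:32166891-32167140 for Notch3 and chr6:142702275-142702524 for Abcc9, both on the - strand. Capitals mark matches on either strand to 4 short motifs, the RBPJ core TGGGAA that Notch effectors bind, the E-box CANNTG, the GC box GGGCGG and the TATA box TATAAA.
Pdgfd: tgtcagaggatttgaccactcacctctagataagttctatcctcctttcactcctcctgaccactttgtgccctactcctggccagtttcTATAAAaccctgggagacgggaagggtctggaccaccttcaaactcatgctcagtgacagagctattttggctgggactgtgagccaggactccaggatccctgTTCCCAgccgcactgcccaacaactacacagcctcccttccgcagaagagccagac
Rgs5: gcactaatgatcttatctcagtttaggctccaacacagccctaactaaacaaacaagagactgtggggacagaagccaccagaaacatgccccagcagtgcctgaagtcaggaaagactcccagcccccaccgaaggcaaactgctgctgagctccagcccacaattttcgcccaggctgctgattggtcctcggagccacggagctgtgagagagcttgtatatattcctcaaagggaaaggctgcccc
Notch3: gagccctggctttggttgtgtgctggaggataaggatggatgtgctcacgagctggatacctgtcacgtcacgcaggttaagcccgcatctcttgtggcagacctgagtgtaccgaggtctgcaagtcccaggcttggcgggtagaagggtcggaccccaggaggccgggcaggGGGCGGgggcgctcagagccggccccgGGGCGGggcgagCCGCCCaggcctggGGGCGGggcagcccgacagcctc
Abcc9: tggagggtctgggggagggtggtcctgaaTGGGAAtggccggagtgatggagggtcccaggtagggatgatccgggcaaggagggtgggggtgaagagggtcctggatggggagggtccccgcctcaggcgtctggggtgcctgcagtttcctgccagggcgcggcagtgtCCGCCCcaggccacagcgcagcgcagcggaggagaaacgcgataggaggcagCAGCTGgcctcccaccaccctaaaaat
Pdgfd held 1 TATA box and 1 RBPJ core, Notch3 held 4 GC boxes, Abcc9 held an RBPJ core, an E-box and a GC box, and Rgs5 held none of the 4. In 32851 promoter windows of the same length, 21.6% held the RBPJ core, 66.2% an E-box, 32.7% a GC box and 12.4% a TATA box. No matches overlapped each other in these 4 promoters. Of the 10 members, 8 had a promoter in the table.

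Pdgfa, Pdgfb and Pdgfc, the other ligands, were not called between genotypes at any day. Their brightest probe sets differed by between −0.31 and 0.32, with Pdgfa at 0.30, −0.11 and 0.04, Pdgfb at 0.32, 0.21 and −0.02 and Pdgfc at −0.31, −0.07 and −0.13. Pdgfc, the one of them below WT at each day, read 8.62, 8.06 and 7.92 in Mmp13-/- tissue at 7 d, against 8.76, 8.13 and 8.64 in WT tissue. It read 7.75, 8.01, 7.98 and 7.81 in Mmp13-/- tissue at 14 d, against 7.92, 8.09, 7.88 and 7.95 in WT tissue, and 8.31, 7.99, 8.26 and 7.89 in Mmp13-/- tissue at 21 d, against 8.51, 8.21, 8.13 and 8.11 in WT tissue. The genotypes overlapped at each day for this ligand of PDGF receptor α, and the mean of the 3 days was −0.17 (95% interval −0.37 to 0.03), or −0.22 (−0.41 to −0.02, adjusted p = 0.693 in limma) by its other probe set. Pdgfb, the ligand that endothelial cells and platelets secrete, read 5.59, 5.52 and 5.50 in Mmp13-/- tissue at 7 d by its second probe set, against 5.30, 5.26 and 5.49 in WT tissue. These groups did not overlap, as was so for 7.98% of all probe sets at 7 d, and the exact permutation p was 0.10, the smallest that 3 against 3 arrays can give. With WT 7 d replicate 1 left out, the 7 d differences of the brightest probe sets were −0.08 for Pdgfa, 0 for Pdgfb and −0.19 for Pdgfc.

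Pdgfra, the receptor of fibroblasts and other mesenchymal cells, lay above WT at 7 d and, in 3 of 3 probe sets, had a negative difference at 14 d, none of them called. At 7 d probe set 1421917_at read 9.81, 9.76 and 10.04 in Mmp13-/- tissue, against 9.41, 9.49 and 9.40 in WT tissue. At 14 d it read 9.82, 9.71, 9.92 and 9.48 in Mmp13-/- tissue, against 10.30, 10.19, 10.15 and 9.62 in WT tissue. At 21 d it read 9.69, 9.47, 9.67 and 9.0 in Mmp13-/- tissue, against 9.5, 9.16, 9.15 and 9.42 in WT tissue. The Mmp13-/- arrays were all above the WT arrays at 7 d, and within series 1 they were all below them at 14 d, with the low series 2 arrays of both genotypes apart from the rest. The difference was 0.44 (standard error 0.15), −0.33 (0.13) and 0.15 (0.13) at the 3 days, and none was called (adjusted p = 1, 0.999 and 0.688 in limma). The change of the genotype difference between 7 d and 14 d was −0.77 (standard error 0.20, unadjusted p = 0.000997, adjusted p = 1 in limma), −0.73 and −0.68 for the other probe sets of the gene. Without WT 7 d replicate 1 the 7 d difference was 0.43. Beside this, 6 of 7 fibroblast markers were lower in Mmp13-/- tissue at 14 d (median −0.20), with a mean of 11.12 to 11.37 in Mmp13-/- arrays against 11.35 to 11.65 in WT arrays, and Lum, a collagen-binding proteoglycan, fell by 0.94 (adjusted p = 0.0274 in limma). At 7 d, 5 of these markers were higher and 2 lower (median 0.03). At 21 d, 7 of 7 were lower (median −0.12) and 0 were called. Their 21 d mean was 11.25 to 11.63 in Mmp13-/- arrays against 11.67 to 11.75 in WT arrays.

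Pdgfrb, the receptor of pericytes, differed by 0.90 at 7 d (standard error 0.33, unadjusted p = 0.0128, adjusted p = 1 in limma), and by −0.06 and 0.18 at 14 d and 21 d. At 7 d it read 9.42, 9.84 and 10.25 in Mmp13-/- tissue, against 8.08, 9.54 and 9.19 in WT tissue. At 14 d it read 10.44, 10.47, 10.47 and 10.57 in Mmp13-/- tissue, against 10.21, 10.47, 10.81 and 10.69 in WT tissue. At 21 d it read 10.45, 10.60, 10.92 and 9.91 in Mmp13-/- tissue, against 10.49, 10.52, 9.52 and 10.62 in WT tissue. WT 7 d replicate 1 was the lowest array, and without it the difference was 0.47 (unadjusted p = 0.138).

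Rgs5, the regulator of G protein signalling that marks pericytes, was separated by genotype at 14 d in 1 of its 4 probe sets, the brightest. At 7 d it read 9.18, 9.62 and 10.10 in Mmp13-/- tissue, against 7.29, 9.86 and 9.78 in WT tissue. At 14 d it read 9.64, 9.51, 9.35 and 9.38 in Mmp13-/- tissue, against 9.88, 10.32, 10.72 and 9.85 in WT tissue. At 21 d it read 10.02, 9.90, 9.83 and 8.98 in Mmp13-/- tissue, against 9.60, 10.30, 9.81 and 10.21 in WT tissue. No Mmp13-/- array reached a WT array at 14 d by this probe set, while at 7 d and 21 d the genotypes overlapped, and the other 3 probe sets overlapped at 14 d. The 14 d difference of −0.72 (standard error 0.40) did not pass the test, and its other probe sets gave −0.37, −0.93 and −1.17, of which the last 2 had unadjusted p = 0.0179 and 0.00937. Without WT 7 d replicate 1 the 7 d difference was −0.19, and probe set 1420940_x_at then passed the threshold over the mean of the days (−0.85, adjusted p = 0.0422 in limma), against −0.61 (adjusted p = 0.569) with all arrays. Probe set 1420942_s_at carried a series term of −2.32, and the suffixes of 1420940_x_at and 1420942_s_at mark probes that can match other transcripts, as does the s suffix of the brightest Notch3 and Abcc9 probe sets, 1421965_s_at and 1435752_s_at, and of 1449351_s_at of Pdgfc.

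Notch3, the receptor that maintains mural cell identity, and Abcc9, the sulfonylurea receptor of pericyte potassium channels, had 14 d differences of −0.25 and −0.55. Notch3 read 5.94, 6.59 and 6.90 in Mmp13-/- tissue at 7 d, against 4.75, 6.32 and 5.89 in WT tissue. It read 6.80, 6.64, 6.80 and 6.82 in Mmp13-/- tissue at 14 d, against 6.70, 6.87, 7.57 and 6.92 in WT tissue, and 6.97, 7.03, 6.86 and 6.60 in Mmp13-/- tissue at 21 d, against 7.15, 7.22, 6.81 and 7.35 in WT tissue. The genotypes overlapped at each day, with differences of 0.82, −0.25 and −0.27. Its dimmer probe set 1421964_at read 4.70, 4.69, 4.70 and 4.74 in Mmp13-/- tissue at 14 d, against 4.90, 5.23, 5.42 and 4.78 in WT tissue, with no overlap. Abcc9 read 6.54, 6.74 and 7.31 in Mmp13-/- tissue at 7 d, against 4.39, 6.59 and 6.56 in WT tissue. At 14 d it read 6.87, 6.58, 6.66 and 6.57 in Mmp13-/- tissue, against 6.88, 7.21, 7.68 and 7.13 in WT tissue. At 21 d it read 6.84, 7.03, 6.70 and 6.09 in Mmp13-/- tissue, against 6.78, 7.12, 6.44 and 7.26 in WT tissue. Its differences were 1.02, −0.55 and −0.24, and at 14 d the arrays of the genotypes did not overlap. Notch3 differed at 7 d by 0.37 and Abcc9 by 0.29 when WT 7 d replicate 1 was left out.

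Of the 25 member probe sets, 3 did not overlap between genotypes at 7 d, of Pdgfb, Pdgfd and Pdgfra, where 7.98% of all probe sets did not. At 14 d, 4 member probe sets lay wholly below WT, of Pdgfd, Rgs5, Notch3 (1421964_at) and Abcc9, where 1.9% of all probe sets did so. The exact permutation p of each was 0.0286, which any 4 against 4 arrays without overlap give, so it adds nothing to the separation. That permutation did not keep arrays within their hybridization series. Across all 25 member probe sets, 22 were lower in Mmp13-/- tissue at 14 d with a median of −0.33, against a median of 0.01 over all probe sets, and 18 were higher at 7 d with a median of 0.28 against −0.01. None was called at any of the 3 days in limma, where 0.00888%, 0.0178% and 0.0488% of all probe sets were called. An unadjusted p under 0.05 was found for 6 at 7 d, 5 of them higher, for 7 at 14 d, all of them lower, and for 2 at 21 d, where 2.16%, 3.98% and 11.9% of all probe sets had one. Without WT 7 d replicate 1 the 7 d median over the members was 0 and 1 higher and 3 lower probe sets had an unadjusted p under 0.05, where 2.34% of all probe sets had one. In the same fit 0 higher and 10 lower probe sets had such a p at 14 d, where 4.23% of all had one, with a median of −0.33.

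Of the 8 endothelial genes, 8 were lower in Mmp13-/- tissue at 14 d (median −0.29) and none was called, and their mean signal was 6.71 to 7.08 in Mmp13-/- arrays at 14 d against 6.94 to 7.76 in WT arrays. At 7 d the median difference was 0.62 with 7 of 8 higher, and the mean signal was 6.48, 6.92 and 7.13 in Mmp13-/- arrays against 5.48, 7.14 and 6.50 in WT arrays, so that the low WT value was again that of replicate 1. At 21 d, 7 of 8 endothelial genes were lower in Mmp13-/- tissue (median −0.37) and none was called. Their mean signal was 6.64 to 6.98 in Mmp13-/- arrays at 21 d against 6.95 to 7.46 in WT arrays. Smooth muscle and myofibroblast markers had a median of −0.13 at 14 d, and the 11 other pericyte markers had 9 lower with a median of −0.16. Keratinocyte markers were lower in 8 of 8 at 14 d with a median of −1.02, and their mean was 4.35 to 4.74 in Mmp13-/- arrays against 4.74 to 6.61 in WT arrays. The part of these cell types in the member values was not tested.

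**Figure D3:**
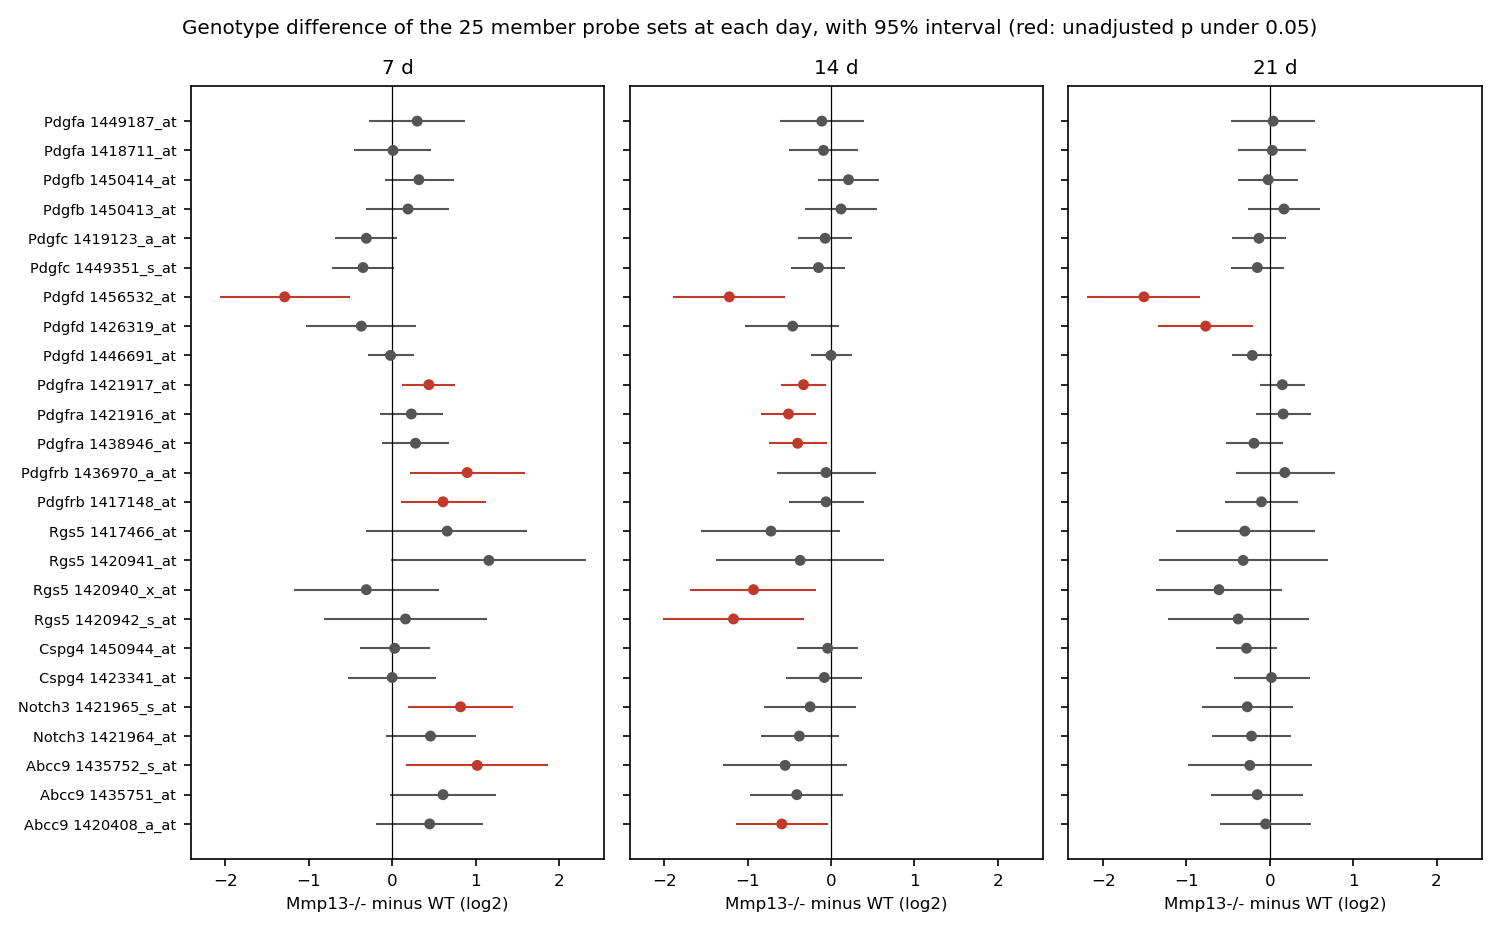
Log2 difference between Mmp13-/- and WT tissue of all 25 member probe sets, with a panel for each of the 3 days and 95% intervals of the limma fit, red where the unadjusted p was under 0.05. Most points lie right of 0 at 7 d and left of 0 at 14 d, and the Pdgfd probe set 1456532_at lies below −1 at each day.

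Cspg4, the NG2 proteoglycan of pericytes and of several other cell types, was not called in any of the 10 comparisons. It read 6.09 to 6.13, 6.21 to 6.35 and 5.98 to 6.53 in Mmp13-/- tissue at the 3 days, against 5.69 to 6.37, 6.25 to 6.47 and 5.88 to 6.82 in WT tissue, so the genotypes overlapped at each day. Its brightest probe set differed by 0.03, −0.04 and −0.28 between genotypes at the 3 days and it had a correlation of 0.32 with Rgs5 within groups, against 0.97 for Abcc9 with Rgs5 and 0.92 for Notch3 with Abcc9. Without the WT 7 d arrays these were −0.15, 0.90 and 0.87. Pdgfrb correlated within groups at 0.87 with both Notch3 and Abcc9, and at 0.78 and 0.84 without the WT 7 d arrays. These values are a description of arrays that share their groups and are not tested.

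The genes most like Notch3 over the 22 arrays were Cdh5 (r = 0.97), the adhesion molecule of endothelial junctions, Col4a2 (0.96), a basement membrane collagen, and Sox7 (0.96), an endothelial transcription factor. For Abcc9 they were Aplnr (0.94), Mcam (0.94) and Mmrn2 (0.92), for Rgs5 Sparcl1 (0.93), Mmrn2 (0.92) and Ptprb (0.92), and for Pdgfrb Igfbp3 (0.91), Jcad (0.91) and Pald1 (0.90). Without WT 7 d replicate 1 the r of Notch3 with Cdh5 was 0.93 and that of Rgs5 with Sparcl1 was 0.81. For Pdgfa the nearest were Auts2 (0.90), Rragd (0.88) and Chchd10 (0.87), for Pdgfb Col15a1 (0.82), Esm1 (0.81) and Eef2 (0.77), and for Pdgfc Pcsk6 (0.81), Mfap5 (0.79) and Osr1 (0.75). For Pdgfra they were Slc7a6 (0.83), Fnbp1 (0.81) and Cyp7b1 (0.80), and for Cspg4 Fchsd2 (0.74), Fbln2 (0.74) and Ydjc (0.72). Within groups the 3 correlations of Pdgfra were 0.19, 0.56 and 0.30, so they rested largely on the group means. The other pairs of this paragraph had 0.61 to 0.96 within groups. Without WT 7 d replicate 1, r over the remaining arrays was 0.63 (Cspg4 with Fbln2) to 0.93 for the pairs of this paragraph.

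Between 7 d and 14 d probe sets of Pdgfra, Pdgfrb, Notch3 and Abcc9 rose in WT tissue. Of the 25 member probe sets, 6 were called higher and 0 lower in limma, where 1.13% of all probe sets were called higher and 1.7% in either direction, and in Mmp13-/- tissue 0 were called higher and 1 lower, where 0.302% of all were called lower and 0.628% in either direction. In WT tissue 18 had an unadjusted p under 0.05, where 10.1% of all had one. Pdgfrb was higher at 14 d than at 7 d in WT tissue by 1.57 (standard error 0.32, 2.97-fold, adjusted p = 0.0113 in limma) by its brightest probe set and by 1.35 (adjusted p = 0.00406) by the other. Notch3 was higher by 1.37 (adjusted p = 0.0166) and 1.12 (0.0231), Pdgfra by 0.75 (0.00842) and Abcc9 by 1.39 (0.0163), by its dimmest probe set 1420408_a_at, with a mean of 3.29 over all arrays. The brightest Abcc9 probe set was not called, at 1.41 (adjusted p = 0.0839 in limma), and the call of 1420408_a_at was lost with the series as a random block (1.21, adjusted p = 0.1) and with no series term (1.06, adjusted p = 0.28). The Pdgfra call was lost with no series term (0.63, adjusted p = 0.074) and over the mean of its probe sets (0.41, adjusted p = 0.0828), of which 1438946_at was at −0.15. The median over the members was 0.63, against −0.01 over all probe sets. In Mmp13-/- tissue the same differences were 0.61 and 0.69 for Pdgfrb, 0.29 and 0.29 for Notch3, −0.02 for Pdgfra and 0.35 for Abcc9, and the called probe set, 1 of 3 with an unadjusted p under 0.05 where 6.65% of all had one, was 1438946_at of Pdgfra at −0.84 (adjusted p = 0.0399 in limma). It lost the call in 11 of 22 runs that each left out 1 array, with adjusted p up to 0.192.

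Of these 6 WT calls, 4 were lost without WT 7 d replicate 1, and the count was also 2 without WT 14 d replicate 3. Without the first of these arrays 2 member probe sets were called in WT tissue, of Pdgfrb (0.96, adjusted p = 0.0128) and Pdgfra (0.74, adjusted p = 0.0326), both in limma, and 1.35% of all probe sets were called. Notch3 then gave 0.92 (adjusted p = 0.0758), Abcc9 0.94 (0.0768) and the brightest Pdgfrb probe set 1.14 (0.0639). In series 1 arrays alone, which hold all of 7 d, 6 member probe sets were also called. Pdgfrb gave 1.56 and Pdgfra 0.78 there, Notch3 1421965_s_at (1.39, adjusted p = 0.0749 in limma) and Abcc9 1420408_a_at (1.46, adjusted p = 0.0625) lost the call, and second probe sets of Pdgfb (0.51, adjusted p = 0.00853) and Pdgfra (0.64, adjusted p = 0.0438) gained one. Of the ligands, Pdgfb gave 0.47 in Mmp13-/- tissue and 0.59 in WT tissue over all arrays, and Pdgfc gave −0.30 in Mmp13-/- tissue and −0.54 in WT tissue, none of them called. In the test of the difference in this change between genotypes, 0 member probe sets and 0 of all probe sets were called. At an unadjusted p under 0.05, 11 member probe sets had a lower change in Mmp13-/- tissue and 0 a higher one, where 2.29% of all had such a p, and without WT 7 d replicate 1 there were 4 and 0, where 2.74% of all had one. Beside these changes, 6 of 8 endothelial markers were higher at 14 d than at 7 d in Mmp13-/- tissue (median 0.11, 0 with an unadjusted p under 0.05) and 7 of 8 in WT tissue (median 1.16, 6 with such a p), with 0 called in limma in either. The WT median includes WT 7 d replicate 1, with an endothelial mean of 5.48 against 7.14 and 6.50 in the other WT 7 d arrays, and is not given without it. The part of the endothelial markers in the member values was not tested.

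**Figure D4:**
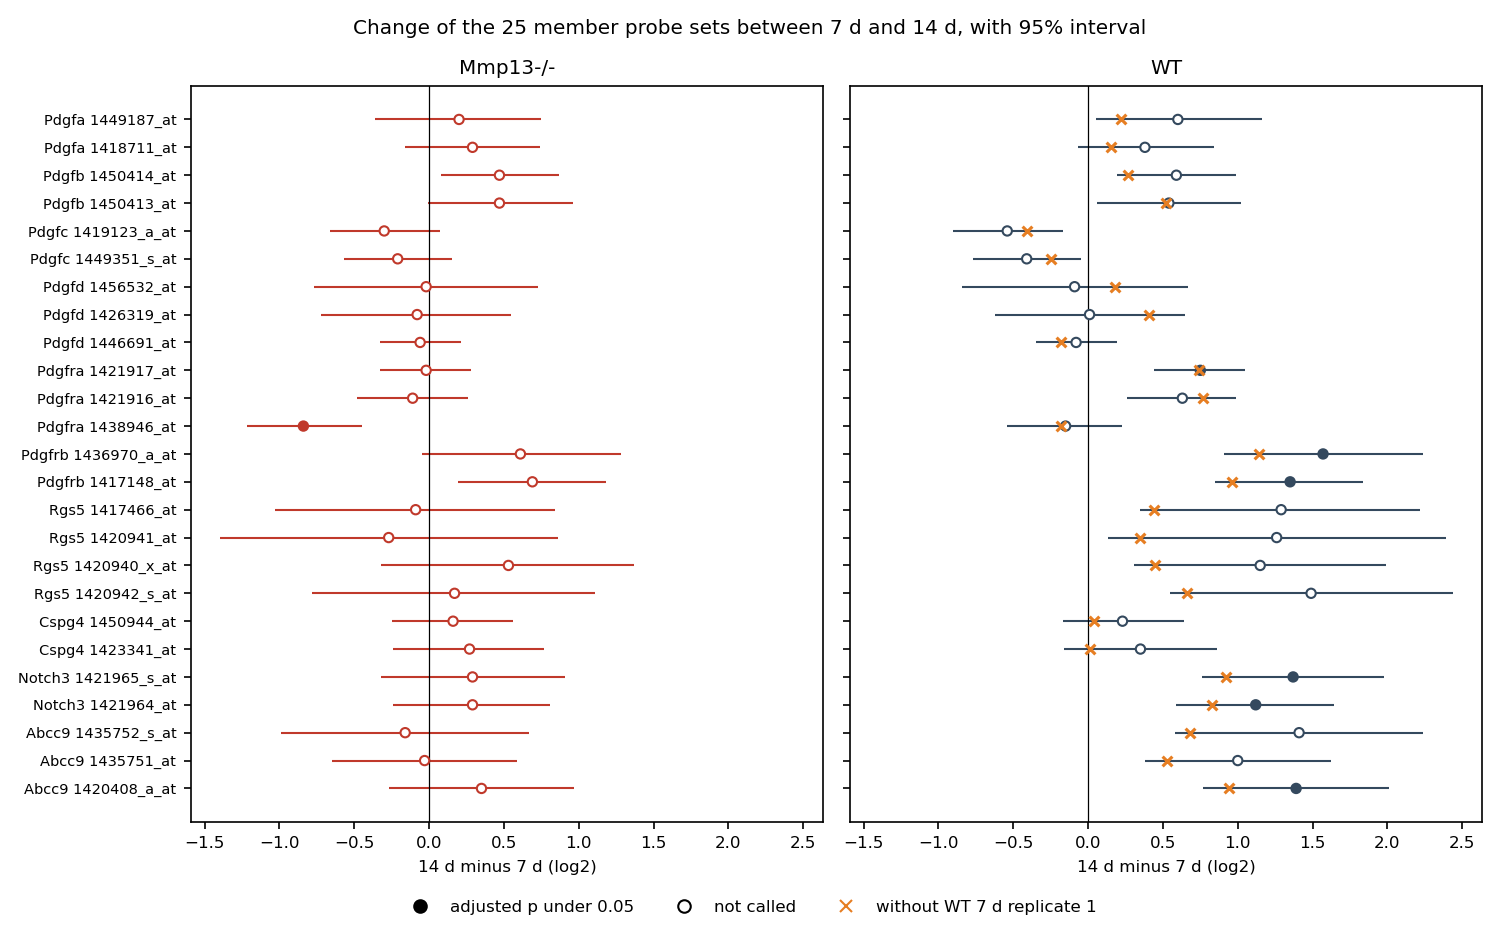
Log2 difference of 14 d against 7 d for the 25 member probe sets in Mmp13-/- tissue and in WT tissue, with 95% intervals of the limma fit, filled where the adjusted p was under 0.05. Orange crosses give the WT values without WT 7 d replicate 1, which lie nearer 0 for the mural genes.

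The change of the genotype difference between 14 d and 21 d had 0 calls among members and over all, and 2 member probe sets, both of Pdgfra, had an unadjusted p under 0.05, where 6.58% of all had one. Between 14 d and 21 d no member probe set was called in Mmp13-/- or in WT tissue (limma, 0.0799% and 0.42% of all called), and 3 in each had an unadjusted p under 0.05, where 13.7% and 14.1% of all had one. In WT tissue all 3 were of Pdgfra and lower at 21 d, at −0.41, −0.57 and −0.81. The interval of the brightest Pdgfrb probe set in Mmp13-/- tissue was −0.92 to 0.66, and changes within it were not detectable at these array numbers.

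Other genes of the PDGF and Notch pathways were not called between genotypes. Of the 6 activating proteases and co-receptors, the 17 measured of 19 signal relays, the 9 negative regulators and the 7 Notch ligands and targets, 0 were called between genotypes at any day. Over all probe sets 0.00888%, 0.0178% and 0.0488% were called at the 3 days, so a count of 0 in such short lists sets them apart in no way. The list medians at 14 d were 0.02, 0.04, 0.06 and −0.22 for these 4 lists, against 0.01 over all probe sets. At 21 d they were 0.04, −0.05, 0.15 and −0.16, against 0. Of the 7 Notch ligands and targets, 6 were lower at 21 d. Of these 2 had an unadjusted p under 0.05 in limma, where 11.9% of all probe sets had one. Of the 9 negative regulators, 9 were higher over the mean of the days (median 0.09). Immediate early genes, which PDGF and many other signals induce, were higher in 8 of 8 at 21 d with a median of 0.32 and 0 called, and were lower in 5 of 8 at 7 d (median −0.12) and in 5 of 8 at 14 d (median −0.06). Between 7 d and 14 d, 7 of the 8 immediate early genes were lower and 1 higher in WT tissue (median −0.48). In Mmp13-/- tissue 6 were lower and 2 higher (median −0.29). Among them Fos (−0.70), Junb (−0.75) and Ier3 (−1.0) fell in WT tissue and Ier3 (−1.06) fell in Mmp13-/- tissue. Of the 9 negative regulators, 5 were higher and 4 lower at 14 d in WT tissue (median 0.02). Ptpn2 alone of them, a phosphatase that acts on the receptors, was called there, and fell by 0.55. Of the 11 other pericyte markers, 5 were higher and 6 lower at 14 d in Mmp13-/- tissue (median 0), where Enpep alone was called and fell by 1.82 (adjusted p = 0.0121 in limma). In WT tissue 7 were higher and 4 lower (median 0.25), where Tbx18 alone was called and rose by 0.97 (adjusted p = 0.0245 in limma). Over all probe sets 0.628% were called in Mmp13-/- tissue and 1.7% in WT tissue. Of the 8 smooth muscle and myofibroblast genes, 7 were higher and 1 lower at 14 d in each genotype. Their medians were 0.58 in Mmp13-/- tissue and 0.81 in WT tissue. Among them Tagln rose by 1.88 in Mmp13-/- tissue and by 1.83 in WT tissue, while Acta2 (1.14) and Mylk (1.77) were called in WT tissue. Of the 7 fibroblast genes, 2 were higher and 5 lower at 14 d in Mmp13-/- tissue (median −0.20). Among them 1 was called, Dcn, which fell by 0.48. Of the 8 keratinocyte genes in Mmp13-/- tissue, 5 were higher and 3 lower with a median of 0.06. Of these 2 were called, Dmkn, which fell by 2.21, and Sbsn, which fell by 1.14.

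**Figure D5:**
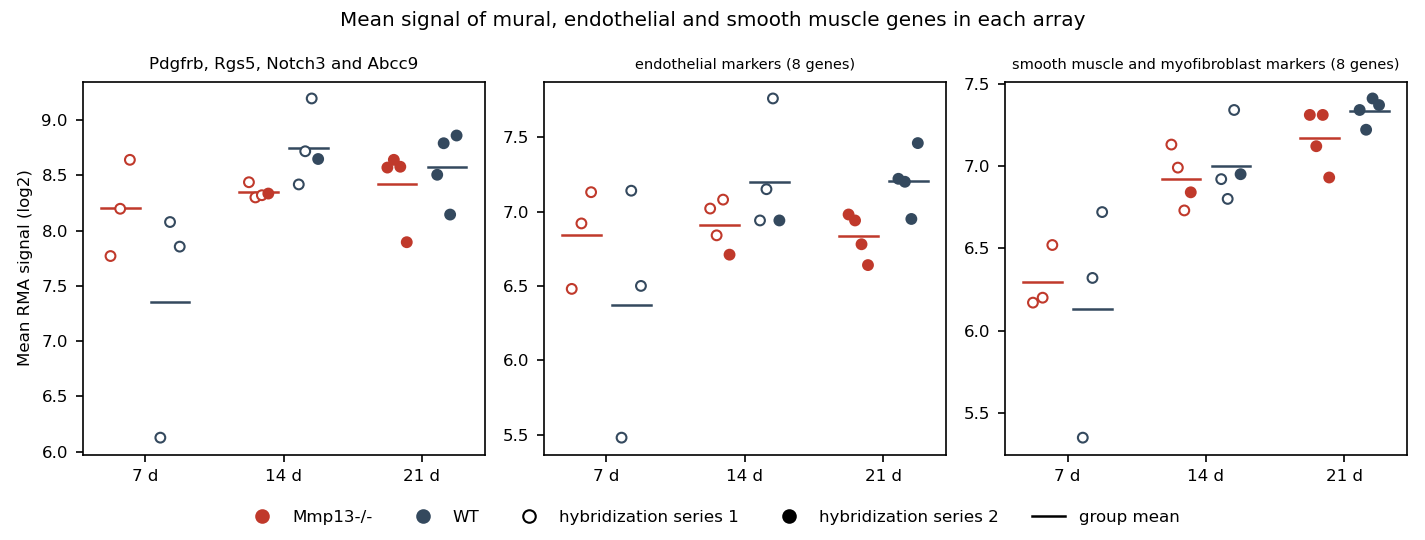
Mean RMA log2 signal per array of Pdgfrb, Rgs5, Notch3 and Abcc9, of 8 endothelial markers and of 8 smooth muscle and myofibroblast markers, with Mmp13-/- in red left of WT in dark blue, open points for series 1, filled points for series 2 and a bar at the group mean. WT 7 d replicate 1 is the lowest array in all 3 panels.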

How the data were processed

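RNA was taken from the ends of viscose cellulose sponges and hybridized to 22 Affymetrix Mouse Genome arrays. The authors deposited RMA log2 signals with 2 decimals, made per the submitters' processing notes with Expression Console 1.1 and Chipster 1.4.7. The genome build was not given in the sources used here, so gene order and promoters were taken by gene name from RefSeq GRCm38.p6. Of 45101 probe sets, 64 controls were left out and 45037 tested, of which 34945 carried 1 gene symbol, 932 several and 9160 none.

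Group means of the 6 groups and a hybridization series term were fitted to all arrays with limma 3.58.1 in R 4.3.3 (15 residual and 4.57 prior degrees of freedom), with Benjamini-Hochberg adjustment over all probe sets and an adjusted p under 0.05 as the threshold. The code was tested on simulated data. Single values were tested by exact permutation. The number of arrays limits the precision. All 10 member genes are named with every probe set of their own, with values per array for those called or with an unadjusted p under 0.05 in a genotype comparison, and the 3 genes most like each by Pearson correlation. The members and gene lists were chosen with earlier results of these data known. Alternatives were the hybridization term (none or a random block), the arrays used, re-normalization, a filter on dim probe sets, another prior, the mean of a gene's probe sets, the replicate number as a block and leaving out each array.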

Additional observations from a re-analysis of the deposited data

Results flagged for a closer look

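In 2 of the 40 groups of 4 arrays looked at, 1 array lay far from the others by Dixon's criterion at the 95% level, and chance flags about 1 in 20 groups. Pdgfrb read 9.52 in WT 21 d replicate 3, against 10.49, 10.52 and 10.62 in the other WT arrays of that day. Notch3 read 6.64 in Mmp13-/- 14 d replicate 2, against 6.80, 6.80 and 6.82 in the other Mmp13-/- arrays of that day. Groups of 3 arrays, among them WT at 7 d, were not looked at in this way.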

How the results depend on the processing

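Over 59 differences and 1848 settings, 1797 kept their direction and side of the threshold, 31 lost the call, 19 gained one and 1 reversed. The reversed one was Rgs5 probe set 1420942_s_at for 21 d against 14 d in Mmp13-/- tissue, at −0.52 without the hybridization term against 1.21 with it. The 59 were the member differences with an unadjusted p under 0.05 in limma, and most were not called with all arrays. Those kept their side by staying uncalled, so the 1797 does not measure how stable the calls were. A call could be lost only by the called ones. These were 1 over the mean of the days, and 1 and 6 for 14 d against 7 d in Mmp13-/- and WT tissue. The counts that follow are of member probe sets called in limma. With an unadjusted p under 0.05 in place of the adjusted one, they were 6, 7 and 2 between genotypes at the 3 days in order, 4 over the mean of the days, 3 and 18 for 14 d against 7 d in Mmp13-/- and WT tissue, 3 and 3 for 21 d against 14 d, and 11 and 2 for the changes of the genotype difference. For 14 d against 7 d, the arrays of the compared groups alone gave 2 in Mmp13-/- tissue and 1 in WT tissue, and series 1 alone gave 2 in Mmp13-/- tissue. For 21 d against 14 d, no hybridization term gave 2 in Mmp13-/- tissue and 6 in WT tissue, and the random block gave 2 in WT tissue. The cause was not tested.

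Leaving out each array in turn gave 0 at 7 d and 14 d, 0 to 1 at 21 d (1, Pdgfd, without Mmp13-/- 21 d replicate 3 or WT 21 d replicate 3), 1 to 2 over the mean of the days (2 without WT 7 d replicate 1), 0 to 1 and 2 to 8 for 14 d against 7 d in Mmp13-/- and WT tissue (2 without WT 7 d replicate 1 or WT 14 d replicate 3, 8 without WT 7 d replicate 3 or WT 21 d replicate 3), 0 and 0 to 1 for 21 d against 14 d, and 0 for both changes of the genotype difference. The 21 d against 14 d call in WT tissue came without WT 21 d replicate 4. Replicate numbers named no shared animal, and same-numbered arrays deviated with correlations of −0.16 to 0.61, so they do not pair the arrays. The fit with the replicate number as a block left all 10 counts as they were, with 1, 1 and 6 for the mean of the days and for 14 d against 7 d in Mmp13-/- and WT tissue, and 0 elsewhere.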
